A study of Arabidopsis thaliana with 8 samples.

Results

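The genes described here act in the synthesis and glycosylation of flavonoids in Arabidopsis thaliana: CHIL, DFR, UF3GT, AT4G14090 (UGT75C1), UGT78D2 and UGT78D3. They were chosen by name, through 4 stated probe sets and the probe sets that the platform annotation gives to UGT78D2 and UGT78D3 alone. They make up 6 of the 13350 genes that a probe set of the array names alone, with 1 probe set each. Transcripts were measured on 8 Affymetrix ATH1 arrays, 2 at each of 4 times, in the aerial parts of soil-grown plants of the accession Col-0. The control was harvested before cold (0 h), and the other groups after 1 h, 24 h and 7 d at 4 °C. All plants shared growth at 22 °C under unbroken light at 100 µmol m⁻² s⁻¹ after 4 d of cold stratification. The labels give an age of 18 d and also 10 d at 22 °C for every group, so the age at harvest is unclear. In the cold the plants received roughly 25 µmol m⁻² s⁻¹, and therefore cold and dimmer light cannot be told apart in any comparison with control. Control plants of matched later age were not analysed here. Nothing in the labels says how many plants an array pools or whether replicate arrays come from separate plantings, so p-values measure only the spread between arrays, which may be technical.

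Flavonoids are phenolic pigments and sunscreens made in the epidermis and other tissues of the shoot. Their pathway starts with a shared stretch and then divides at the dihydroflavonols. Flavonol synthase turns these into flavonols, which are colourless ultraviolet absorbers, and dihydroflavonol reductase turns them into the precursors of anthocyanins, the red and purple pigments. Sugars are then attached by UDP-dependent glycosyltransferases, which make the products soluble and ready for storage in the vacuole. In Arabidopsis, anthocyanins are known to build up in cold and in strong light. CHIL, a chalcone isomerase-like protein without isomerase activity of its own, raises flux in the shared stretch. UGT78D2 attaches glucose to flavonols and to anthocyanidins, so it serves both branches, while UGT78D3 attaches arabinose to flavonols. DFR is the dihydroflavonol reductase. AT4G14090 adds glucose to the A ring of anthocyanins. UF3GT, also called UGT79B1, keeps an older name as a flavonoid glucosyltransferase but is known to add xylose to the glucose of anthocyanins.

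The labelled tissue was checked first. RCA, the Rubisco activase of green tissue, read 5935 and 5056 on the control arrays, 4813 and 4692 at 1 h, 5464 and 5787 at 24 h, and 3482 and 3404 at 7 d, and was lower at 7 d than in the control (-0.67 ± 0.10, adjusted p = 0.00385). The root-hair expansin EXPA7 read from 2.20 to 15.0, below the 40th percentile of its array everywhere, and the root and hypocotyl glucosidase PYK10 read 130.1 to 158 on the control and 1 h arrays, 109.1 and 85.3 at 24 h, and 15.6 and 18.9 at 7 d. PYK10 was lower at 7 d by the same fit (-2.66 ± 0.17, adjusted p = 9.96e-05). The part of these 2 markers in the later results was not tested. BAN, the anthocyanidin reductase of the seed coat, read at most 2.82. No other listed marker of green, root, floral or seed tissue was named alone by a probe set. Median signals of the arrays ranged from 32.8 to 37.7. Arrays of 1 time had r from 0.964 to 0.975 over probe sets, which are not independent replicates. Arrays of different times had r from 0.885 to 0.970, so the 2 ranges overlapped. The ratio of 3′ to 5′ signal for GAPDH, a measure of RNA integrity, was 1.24 and 1.26 on the control arrays, 1.46 and 1.46 at 1 h, 1.34 and 1.18 at 24 h, and 1.36 and 1.17 at 7 d. Differences below are on the scale log2(signal + 6.07) and were tested with limma over 14756 probe sets. The threshold was an adjusted p (Benjamini-Hochberg) under 0.05. In RNA from whole shoots, fewer cells expressing a gene and less RNA per cell cannot be told apart.

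After 24 h in the cold CHIL, UGT78D2 and UGT78D3 were higher than in the control and AT4G14090 was lower, while DFR and UF3GT did not pass. After 7 d DFR and AT4G14090 were lower, and no gene of the 6 was higher. After 1 h none passed. Set against all probe sets tested, the count of genes that were higher at 24 h was 3 of 6, where 11.1% of all probe sets were higher, and that of lower genes was 1 of 6, where 15.1% were lower. UGT78D3 could enter the test only through 24 h, as given below, and without it 2 of 5 genes were higher at 24 h. At 7 d the lower genes were 2 of 6, where 8.54% of all were lower, and the higher 0 of 6 by limma, where 7.33% were. At an unadjusted threshold of 0.05 limma had 1 gene higher at 7 d, UGT78D3, where 15.1% of all probe sets were higher. At 1 h the count was 0 of 6 by limma, where 0.908% of all probe sets passed in either direction. None of the 6 had an unadjusted p under 0.05 at 1 h, the smallest being 0.165 for UGT78D2. All 6 genes entered the test, which asked for a signal at or above the 40th percentile on at least 2 arrays. CHIL and UGT78D2 reached that level on all 8 arrays, DFR on 7, UF3GT on 6 and AT4G14090 on 5. UGT78D3 reached it on the 2 arrays of 24 h alone, so it could enter only through the time at which it was high, and its calls at 24 h support nothing on their own.

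**Figure D1:**
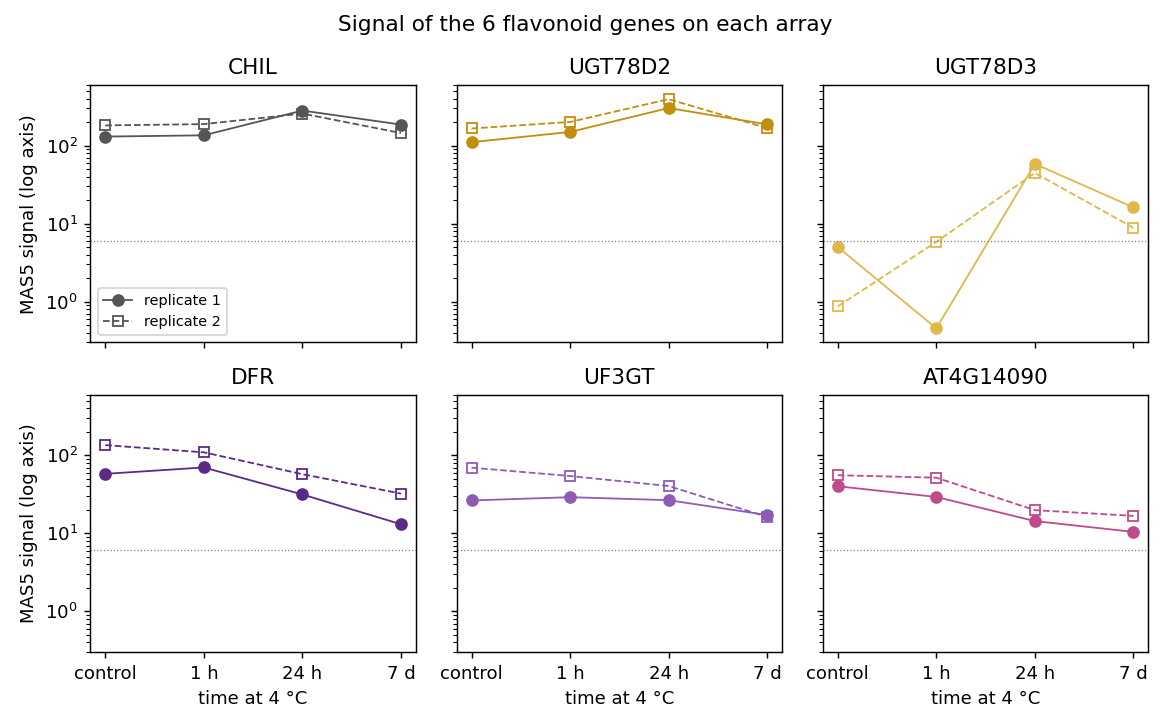
MAS5 signal (log axis) of each gene on each array, by time at 4 °C, with replicate 1 as filled circles and replicate 2 as open squares. The dotted line marks the pseudocount of 6.07, under which the UGT78D3 signal lay on the control and 1 h arrays. CHIL, UGT78D2 and UGT78D3 peak at 24 h, and the means of DFR, UF3GT and AT4G14090 are lowest at 7 d. For DFR and AT4G14090 the arrays of 24 h and 7 d overlap. Levels of different probe sets are not comparable.

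CHIL, the helper of the shared stretch, read 131 and 182 on the control arrays, 136 and 189 at 1 h, 282 and 258 at 24 h, and 186 and 145 at 7 d. Both 24 h arrays lay above every other array, while the 7 d arrays fell within or next to the control range. At 24 h it averaged 269.7 ± 17.0 against 156 ± 36.1 in the control (SD, n = 2 each), a rise of 1.72-fold (log2 0.78 ± 0.22 SE, adjusted p = 0.0284). Against 1 h the 24 h signal was higher by 0.73 ± 0.22 on the log2 scale (adjusted p = 0.0363). That call ended with no filter (adjusted p = 0.0548) and with no variance trend (adjusted p = 0.0575). Without 1 h replicate 1 the difference from 1 h was 0.50. The difference at 7 d was 0.09, with a 95% interval from -0.40 to 0.58 (adjusted p = 0.817). From 24 h to 7 d the difference was -0.69 ± 0.22 (adjusted p = 0.0792), and it passed with the replicate number as a block (adjusted p = 0.0469). The call at 24 h ended without control replicate 1 (0.55, adjusted p = 0.167), and also without either 24 h array (adjusted p = 0.124 and 0.0905).

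UGT78D2, the glucosyltransferase of flavonols and anthocyanidins, read 111 and 166 on the control arrays, 149.7 and 201 at 1 h, 303 and 394 at 24 h, and 187 and 168 at 7 d. Here too the 24 h arrays were the highest, and the 7 d arrays lay just above the control arrays. The 24 h mean was 349 ± 64.2 against 138 ± 39.0 in the control (SD, n = 2 each). This was 2.48-fold higher (1.31 ± 0.23, adjusted p = 0.00401). That call held without each of the 8 arrays in turn, with differences from 1.03 to 1.59. The rise lay between 1 h and 24 h (0.97 ± 0.23, adjusted p = 0.0145), and the signal then fell by 0.94 ± 0.23 between 24 h and 7 d (adjusted p = 0.0381). The fall ended without either 24 h array (adjusted p = 0.0854 and 0.188) or either 7 d array (adjusted p = 0.0805 and 0.144), and the call of 24 h against 1 h ended without 1 h replicate 1 (adjusted p = 0.0962) or 24 h replicate 2 (adjusted p = 0.0995). At 7 d UGT78D2 stood 0.37 above control, with an interval from -0.14 to 0.88 (adjusted p = 0.299).

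UGT78D3, the arabinosyltransferase of flavonols, read 5.02 and 0.869 on the control arrays, 0.455 and 5.84 at 1 h, 58.3 and 44.7 at 24 h, and 16.1 and 8.85 at 7 d. The control and 1 h arrays were all in the lowest 20% of probe sets on their array, and the 24 h arrays at the 61.4 and 56.2 percentiles. The mean was 51.5 ± 9.66 at 24 h against 2.94 ± 2.93 in the control (SD, n = 2 each). The difference was 2.70 on the log2 scale with its pseudocount. Its size depends on the pseudocount, because the control signal lies under it, and no p is given for it, because a gene that entered through 24 h alone had to differ there. At 7 d the arrays still lay above both control arrays, but the difference of 1.05 ± 0.45 did not pass (adjusted p = 0.150). The difference between 7 d and 24 h was -1.65, given without a p for the same reason. In the locus order of the TAIR10.1 table, AT5G17040 lies between UGT78D3 and UGT78D2. It was looked up after the values of its neighbours were seen. Its probe set read from 1.65 to 16.5 over the 8 arrays and was too dim to be tested.

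DFR, which commits dihydroflavonols to anthocyanins, read 58.0 and 136 on the control arrays, 70.1 and 109.5 at 1 h, 31.6 and 57.5 at 24 h, and 13.1 and 32.4 at 7 d. The 24 h arrays came close to the lower control array without overlapping it, and the 7 d arrays lay clearly under both control arrays. Its mean was 22.8 ± 13.6 at 7 d against 96.8 ± 54.8 in the control (SD, n = 2 each). DFR was 3.51-fold lower at 7 d (-1.81 ± 0.46, adjusted p = 0.0310), which places it in the lowest 0.583% of all differences at that time. At 24 h the difference was -0.96 ± 0.46 and did not pass (adjusted p = 0.152), with an interval from -1.996 to 0.07. It ran from -1.53 to -0.39 as each array was left out, the smallest being without control replicate 2 (adjusted p = 0.614). Blocking on the replicate number, the same difference had an SE of 0.18 and passed (adjusted p = 0.00407). The block also brought 24 h against 1 h (-0.94, adjusted p = 0.00440) and 7 d against 24 h (-0.85, adjusted p = 0.0158) past the threshold. At 7 d, where DFR was lower, RCA and PYK10 were lower as well, and their part was not tested. The 7 d call ended without control replicate 2 (-1.24, adjusted p = 0.155) or 7 d replicate 1 (-1.31, adjusted p = 0.139), with no filter (adjusted p = 0.0582), with no variance trend (adjusted p = 0.0533) and with the arrays of those 2 times alone (adjusted p = 0.0524).

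AT4G14090, the anthocyanin glucosyltransferase that adds glucose to the A ring, read 40.2 and 55.8 on the control arrays, 29.4 and 51.8 at 1 h, 14.4 and 19.9 at 24 h, and 10.5 and 16.8 at 7 d. The arrays of 24 h and 7 d were all lower than those of the control and 1 h, and the 2 late times overlapped. It was 2.32-fold lower at 24 h (-1.22 ± 0.31, adjusted p = 0.0219), with means of 17.1 ± 3.88 against 48.0 ± 11.0 in the control (SD, n = 2 each). At 7 d it was 2.75-fold lower, at 13.6 ± 4.47 (-1.46 ± 0.31, adjusted p = 0.0175), again beside the lower RCA and PYK10. Most of the fall lay between 1 h and 24 h (-0.98 ± 0.31, adjusted p = 0.0487), and 7 d differed from 24 h by -0.24, with an interval from -0.95 to 0.47 (adjusted p = 0.667). The call at 24 h ended without control replicate 2 (adjusted p = 0.126), and also without either 24 h array (adjusted p = 0.106 and 0.0560). That at 7 d ended without control replicate 1 (adjusted p = 0.0529), control replicate 2 (adjusted p = 0.0979) or 7 d replicate 1 (adjusted p = 0.0783). The call of 24 h against 1 h ended under most alternatives, among them arrays centred on their median (-0.84, adjusted p = 0.0855).

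UF3GT, the xylosyltransferase of anthocyanins, read 26.5 and 69.7 on the control arrays, 29.1 and 54.4 at 1 h, 26.7 and 40.5 at 24 h, and 17.2 and 16.3 at 7 d. The 2 control arrays spanned the whole range of 1 h and 24 h, and only the 7 d arrays lay under both. At 7 d it averaged 16.7 ± 0.668 against 48.1 ± 30.6 in the control (SD, n = 2 each), a difference of -1.12 ± 0.41 that did not pass (adjusted p = 0.0995). With the replicate block it passed (adjusted p = 0.0241), and it also passed without control replicate 1 (-1.73, adjusted p = 0.0420). Without control replicate 2 it was -0.51 (adjusted p = 0.440). At 24 h the difference was -0.35, with an interval from -1.28 to 0.58 (adjusted p = 0.570). Its direction at 24 h turned without control replicate 2, to 0.26.

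**Figure D2:**
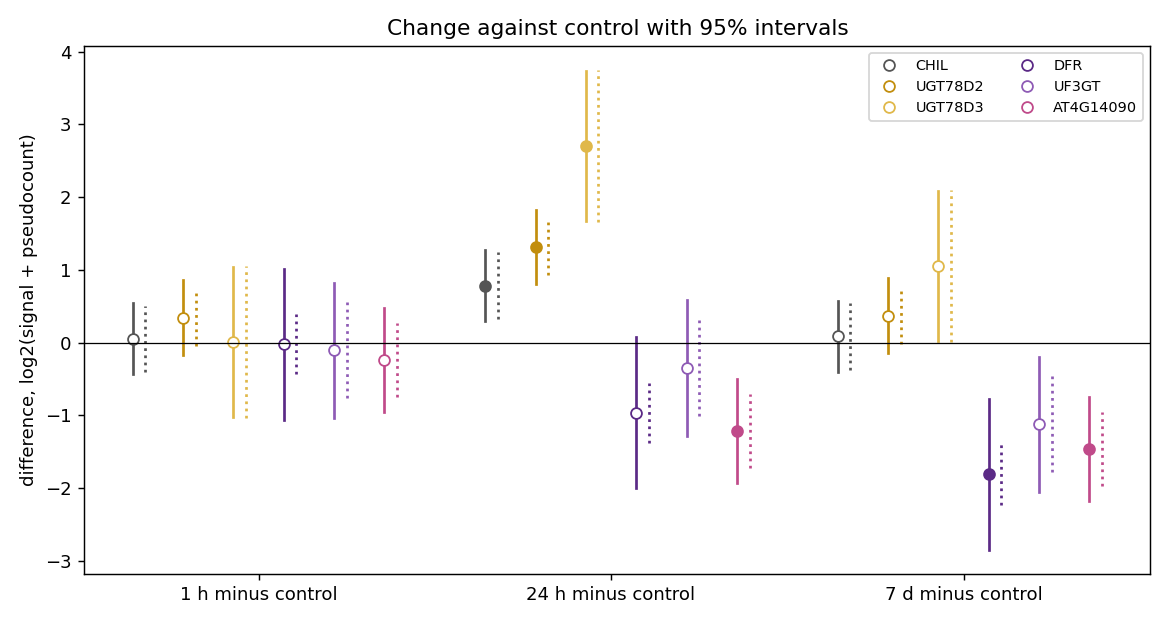
Difference from control in log2(signal + pseudocount) for each gene at 1 h, 24 h and 7 d, with 95% intervals from the fit without the replicate block (solid) and with it (dotted). Filled points passed at an adjusted p under 0.05 without the block. UGT78D3 entered the test only through 24 h and had to differ there, so its filled point at 24 h is a description. CHIL, UGT78D2 and UGT78D3 lie above 0 at 24 h, and DFR, UF3GT and AT4G14090 lie below 0 at 24 h and 7 d.

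Over all 4 times limma's F test passed for 3 of the 5 genes other than UGT78D3: UGT78D2 (adjusted p = 0.0118), AT4G14090 (adjusted p = 0.0171) and DFR (adjusted p = 0.0371). It did not pass for CHIL (adjusted p = 0.0551) or UF3GT (adjusted p = 0.164). Of all probe sets tested, 29.9% passed. With the replicate block 5 of these 5 passed, where 40.9% of all did. UGT78D3 is left out of both counts, because it entered only through 24 h. At 24 h the arrays of 3 of all 6 genes lay above both control arrays, where 26.4% of all probe sets did so. These were CHIL, UGT78D2 and UGT78D3, of which UGT78D3 had to be high there to be tested. Those of 2 genes lay below both, where 39.4% of all probe sets did so. At 7 d the corresponding counts were 2 genes above, UGT78D2 and UGT78D3, and 3 below, where 29.1% and 29.9% of all probe sets did so. The median difference of the 6 genes was 0.22 at 24 h and -0.52 at 7 d, against -0.10 and -0.0015 over all probe sets. That median at 24 h averages genes of opposite direction, and over the 5 genes without UGT78D3 it was -0.35 at 24 h and -1.12 at 7 d. Centring each array on its median moved the median of all probe sets at 24 h by 0.14, to 0.04, and turned the direction of none of the 6 genes in any comparison.

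To set the branches side by side, each gene was expressed relative to its own control mean and averaged within its branch, with DFR, UF3GT and AT4G14090 for anthocyanins and UGT78D2 and UGT78D3 for flavonol glycosylation. The anthocyanin branch stood at -0.46 and 0.46 on the control arrays, -0.47 and 0.23 at 1 h, -1.11 and -0.57 at 24 h, and -1.70 and -1.23 at 7 d. Flavonol glycosylation stood at 0.03 and -0.03 on the control arrays, -0.15 and 0.49 at 1 h, 2.00 and 2.02 at 24 h, and 0.89 and 0.53 at 7 d. The 2 branches overlapped on the control and 1 h arrays and were apart on all 4 late arrays. Anthocyanin minus flavonol averaged -2.85 ± 0.37 at 24 h and -2.18 ± 0.59 at 7 d, against 0 ± 0.70 in the control (SD, n = 2 each). UGT78D3 entered the test only through 24 h, so its part of the flavonol side had to be high there. UGT78D2 alone was also set for the flavonol side, a choice made after seeing that the UGT78D3 signal lay under the pseudocount. This gave averages of -2.15 ± 0.12 at 24 h and -1.84 ± 0.44 at 7 d. Because UGT78D2 also acts on anthocyanidins, these 2 values do not set a gene of flavonols alone against the anthocyanin genes. All 4 tested genes of each branch list were used as well, a choice also made after seeing the data. UGT78D3 stayed on the flavonol side, AT5MAT joined the anthocyanin side and UGT78D1 and AT1G06000 joined the flavonol side. The averages were then -1.63 ± 0.22 at 24 h and -1.33 ± 0.42 at 7 d, against 0 ± 0.27 in the control (SD, n = 2 each). The anthocyanin side of the lists stood at -0.76 and -0.35 at 24 h, which overlapped its control arrays at -0.37 and 0.37. The flavonol side stood at 1.03 and 1.13 at 24 h, with UGT78D3 in it. At 7 d the anthocyanin side stood at -1.41 and -0.99 and the flavonol side at 0.22 and 0.05. Of the 3 genes that joined, UGT78D1 stood at -0.21 at 24 h and -0.30 at 7 d, AT1G06000 at 0.51 and -0.58, and AT5MAT at 0.30 and -0.40. UGT78D1 and AT5MAT thus lay on the opposite side of 0 from their branch average at 24 h, as did UGT78D1 and AT1G06000 at 7 d. At 7 d UGT78D2 stood at 0.37 and UGT78D3 at 1.05. The branch averages carry no test, since the genes were picked for their branch with earlier results known. The order of the times differed between the 2 averages: the flavonol side was highest at 24 h and lower at 7 d, whereas the anthocyanin side was lowest at 7 d. UGT78D1 had no peak at 24 h, with a mean signal of 143.5 against 176 in the control. CHIL, of the shared stretch, also peaked at 24 h, so that peak was not particular to flavonol genes.

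**Figure D3:**
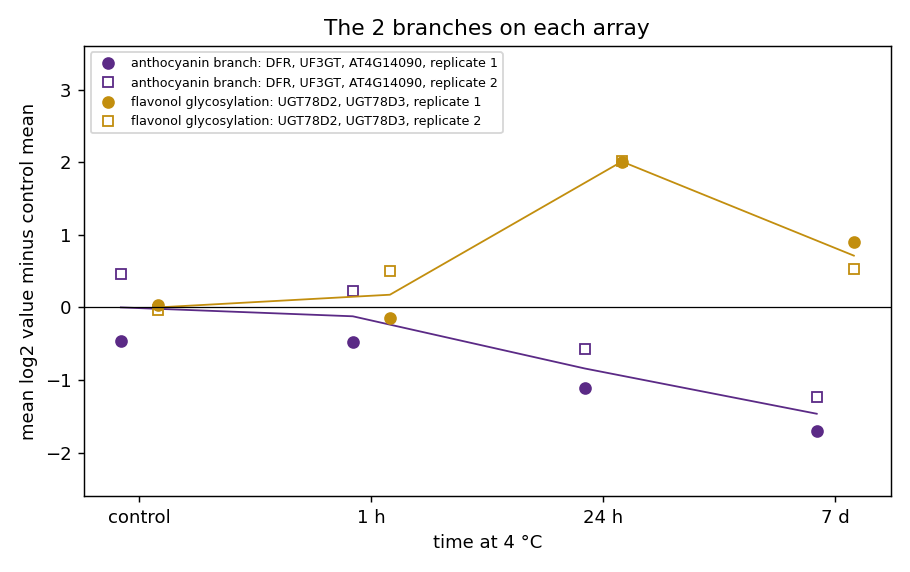
Mean log2 value of each branch on each array, relative to the control mean of each gene, by time at 4 °C. Lines join the means, with replicate 1 filled and replicate 2 open. At 24 h the flavonol arrays stand at 2.00 and 2.02 and the anthocyanin arrays at -1.11 and -0.57. The flavonol mean includes UGT78D3, which entered the test only through 24 h.

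The 2 replicate numbers differed for the anthocyanin genes. DFR was higher in replicate 2 at 4 of 4 times, by 1.14 in the control, 0.60 at 1 h, 0.75 at 24 h and 1.00 at 7 d on the log2 scale. AT4G14090 was also higher in replicate 2 at 4 of 4 times, by 0.34 to 0.71. UF3GT was higher at 3 of 4, by 0.51 to 1.22, and differed by -0.06 at 7 d. The mean difference between replicate 2 and replicate 1 put DFR at the 99.0 percentile of all probe sets, UF3GT at the 97.8 and AT4G14090 at the 96.3. For UGT78D2 the mean was 0.30, for CHIL 0.11 and for UGT78D3 -0.18, with replicate 2 higher at 3, 2 and 1 of 4 times. These stood at the 91.7, 76.8 and 19.6 percentiles, so UGT78D2 also leaned to replicate 2. The same number set apart arrays of the other times as well over all probe sets, with correlations of replicate differences between times from 0.16 to 0.36. What the number stands for is not given in the labels, and its part in the anthocyanin values was not tested beyond the block.

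**Figure D4:**
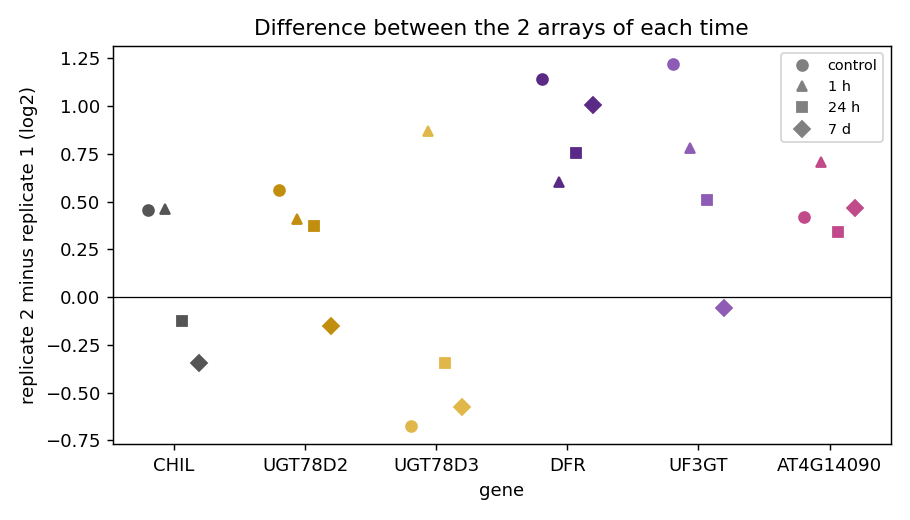
Replicate 2 minus replicate 1 in log2(signal + pseudocount) for each gene at each time. The 4 points of DFR and of AT4G14090 all lie above 0, while those of CHIL, UGT78D2, UGT78D3 and UF3GT lie on both sides.

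With the block, the counts of passing genes were 3 higher and 2 lower at 24 h, where 13.7% and 20% of all probe sets passed in those directions. At 7 d they were 0 higher and 3 lower, where 10.7% and 11.5% did. Between 7 d and 24 h, 4 of the 6 genes were lower with the block, where 7.41% of all were, against 1 of 6 without it, where 4.22% were. The 4 were CHIL, UGT78D2, UGT78D3 and DFR. Between 24 h and 1 h, 3 genes were higher and 1 lower without the block, where 11.6% and 14.9% of all probe sets were, and 3 higher and 2 lower with it, where 14.1% and 19.1% were. UGT78D3 is 1 of the higher genes at 24 h in each of these counts and 1 of the 4 lower with the block between 7 d and 24 h. Without it 2 of 5 were higher at 24 h against control and against 1 h, and 3 of 5 were lower between 7 d and 24 h with the block.

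Beyond the 6 genes, 54 genes of the pathway and its regulators were listed, of which a probe set named 6 alone and 4 were tested. The general phenylpropanoid genes and the repressors had no member so named, and the chalcone synthase, flavonol synthase and MYB activator genes are not reported here. In 24 h against control 1 of the 4 passed as higher and none as lower, where 11.1% and 15.1% of all probe sets did. At 7 d none passed by limma, where 7.33% of all passed as higher and 8.54% as lower. At an unadjusted threshold of 0.05 AT1G06000 alone passed at 7 d, as lower, where 16.1% of all probe sets did. HYH, a bZIP transcription factor related to the light regulator HY5, read 60.1 and 100.4 on the control arrays, 76.6 and 97.3 at 1 h, 130 and 166 at 24 h, and 72.6 and 95.3 at 7 d. Its 24 h arrays were the highest, with the others overlapping. HYH rose at 24 h by 0.87 ± 0.25 against control (adjusted p = 0.0346) and stood at 0.09 at 7 d (adjusted p = 0.845). Its difference between 24 h and 1 h, 0.73, passed with the block (adjusted p = 0.00542; adjusted p = 0.0633 without it), as did that between 7 d and 24 h, -0.78 (adjusted p = 0.00956; adjusted p = 0.0889 without it).

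UGT78D1, which attaches rhamnose to flavonols and is a close relative of UGT78D2 and UGT78D3, read 119 and 234 on the control arrays, 152 and 202 at 1 h, 139 and 148 at 24 h, and 130.1 and 139 at 7 d. All later arrays lay inside the control range. Its difference was -0.21 at 24 h, with an interval from -0.84 to 0.42 (adjusted p = 0.609), and -0.30 at 7 d (adjusted p = 0.499). Whether probes of 1 UGT78D gene also read its relatives was not tested. AT1G06000, a gene of the flavonol list, read 261 and 409 on the control arrays, 296 and 361 at 1 h, 420 and 520.1 at 24 h, and 219 and 213 at 7 d. It fell by 1.09 ± 0.21 between 24 h and 7 d (adjusted p = 0.0209). Against control it stood at 0.51 at 24 h (adjusted p = 0.114) and -0.58 at 7 d (adjusted p = 0.101), and with the block these passed (adjusted p = 0.0331 and 0.0261). AT5MAT, the malonyltransferase that acts after AT4G14090 on anthocyanins, read 19.3 and 23.2 on the control arrays, 23.5 and 32.0 at 1 h, 27.0 and 28.1 at 24 h, and 12.8 and 16.7 at 7 d. It differed by 0.30 at 24 h, with an interval from -0.26 to 0.87 (adjusted p = 0.402), and by -0.40 at 7 d (adjusted p = 0.318). UGT84A1, listed under the supply of sinapate donors, and BAN were too dim to be tested, at no more than 10.2 and 2.82.

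**Figure D5:**
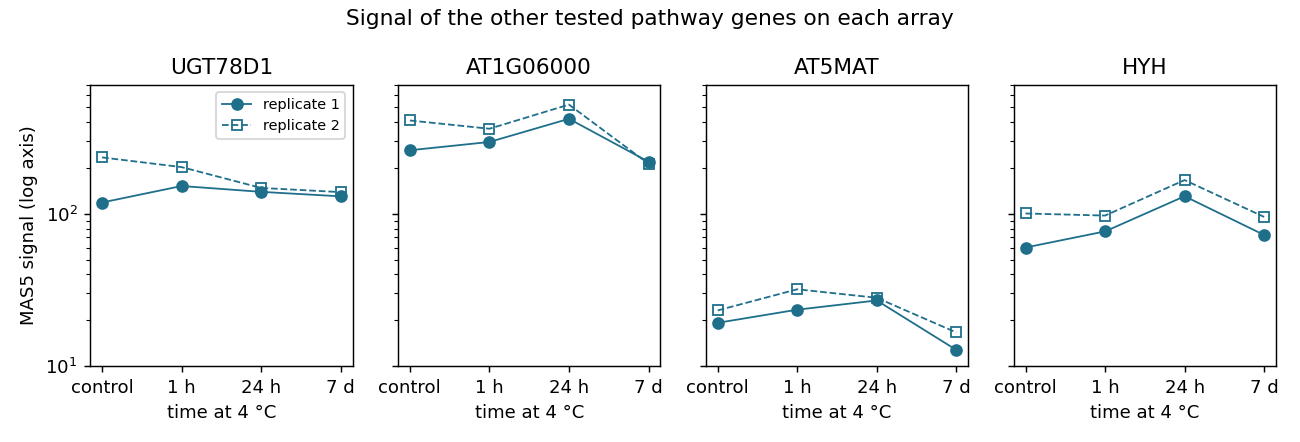
MAS5 signal (log axis) of the 4 other tested pathway genes on each array, by time at 4 °C, with replicate 1 filled and replicate 2 open. HYH and AT1G06000 are highest at 24 h, UGT78D1 stays inside its control range of 119 to 234, and AT5MAT is lowest at 7 d.

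The 6 genes were also matched by pattern, using Pearson's r of log2 values over the 8 arrays. Arrays of 1 time share their treatment, so these are descriptions of 4 times with 2 arrays each. Differences between the 2 arrays of a time also enter r, among them those of DFR, UF3GT and AT4G14090 given above. A high r is therefore not by itself a shared course over the times. Among themselves, CHIL and UGT78D2 had r = 0.93 and each had 0.84 or 0.83 with UGT78D3, while DFR had 0.93 with AT4G14090 and 0.89 with UF3GT. Between the groups r ran from -0.68 for UGT78D3 with AT4G14090 to 0.24 for CHIL with UF3GT. Of other named genes, those nearest to CHIL were AT5G17270, AT1G19450 and AT2G35540 (r from 0.970 to 0.971), and those nearest to UGT78D2 were AT3G53430, AT1G80040 and AT5G13200 (0.962 to 0.986). UGT78D3 was nearest to AT1G69070, AT1G44835 and AT1G51380 (0.983 to 0.987). It entered the test only through its 24 h arrays, so its r values, here and above, follow in part from that filter. Nearest to DFR were AT5G45410, AT3G51750 and AT1G53030 (0.957 to 0.962), to AT4G14090 AT3G23570, AT3G04890 and AT1G75280 (0.977 to 0.984), and to UF3GT AT5G57345, AT1G29700 and CHX20 (0.938 to 0.972). No gene stood nearest to 2 of the 6. Of these nearest genes, AT2G35540, AT3G53430, AT3G51750, AT1G53030, AT3G04890, AT5G57345, AT1G29700 and CHX20 did not pass limma's F test over the 4 times. The others passed.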

How the data were processed

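The deposited values are signal intensities made with MAS5, per the submitters' processing notes (the sources used here give no version), 1 array per sample. MAS5 turns the probes of a probe set into 1 linear signal, and in the deposited values the mean after trimming 2% at each end was 100.01 on every array. Detection calls and scan dates were not used here. Of 22810 probe sets, 64 controls were dropped. A single gene was given by the platform annotation for 13513 of the rest, several for 503 and none for 8730, and genes were named only from the first kind. Locus tags and gene order came from RefSeq's TAIR10.1 table; no coordinates or sequences are given.

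Intensities were used as log2(signal + 6.07), the pseudocount being the 20th percentile of the table, which understates changes of dim genes. Probe sets at or above the 40th percentile of their array on 2 or more arrays were tested (14756). A mean per time was fitted over 8 arrays in R 4.3.3 with limma 3.58.1 (lmFit, then eBayes and a variance trend), with two-sided tests, Benjamini-Hochberg adjustment over all 14756 and 4 residual degrees of freedom. The median SE at 24 h was 0.19, and the number of arrays limits the precision. The fit was tested on simulated data. Arrays of the same number deviated together in 6 of 6 pairs of times (correlations from 0.16 to 0.36, all over 0.1), so a fit with the replicate number as a block is given where it changes a call. The pairing comes from this check and the numbers in the titles, not from a stated shared planting.

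The 6 genes, the lists and the branches were chosen with earlier results of these data known. The text names the 6, the tested genes of the pathway lists, and for each of the 6 the 3 named genes with the highest r. Alternatives changed the pseudocount, the filter, the scaling, the variance trend, the arrays fitted and the block.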

Additional observations from a re-analysis of the deposited data

Results flagged for a closer look

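The genes below passed a direct test in limma of the difference between 2 times in the cold, at an adjusted p under 0.05. Between 24 h and 1 h the difference was 0.73 for CHIL, 0.97 for UGT78D2, 2.70 for UGT78D3 and -0.98 for AT4G14090. Between 7 d and 24 h it was -0.94 for UGT78D2 and -1.09 for AT1G06000. Several of these calls depended on the processing. That of CHIL ended with no filter (adjusted p = 0.0548) and with no variance trend (adjusted p = 0.0575). The call of AT4G14090 ended under most alternatives, and that of UGT78D2 between 7 d and 24 h ended with no filter. UGT78D3 entered the test only through its 24 h arrays and had to differ there, so its value is a description. Groups of 2 arrays are too small to look for outlying samples.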

How the results depend on the processing

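The 8 arrays limit every value. Over all alternatives, 431 of 495 values of a gene in a comparison kept their direction and their side of the threshold, 37 lost the call, 12 gained it and 15 changed direction. Many alternatives could not change a difference: the filter, the variance trend, the block, fitting only the compared times, or leaving out an array of another time. There only the adjusted p could move, so a kept direction shows nothing. Values that had not passed count as kept where they again did not pass. The 431 are therefore not a measure of stability. Of the 15 that changed direction, 1 kept all arrays: UGT78D3 at 1 h stood at -0.11 with the pseudocount at the 5th percentile. The others left out 1 array, and in all 15 the gene had not passed. At 1 h these differences ran from -0.59 to 0.11 for AT4G14090, from -0.18 to 0.28 for CHIL, from -0.59 to 0.55 for DFR, from -0.72 to 0.50 for UF3GT and from -0.43 to 0.44 for UGT78D3. Those of CHIL at 7 d ran from -0.14 to 0.32. For UF3GT they ran from -0.96 to 0.26 in 24 h against control and from -0.63 to 0.15 in 24 h against 1 h.

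The pseudocount moved the branch difference at 24 h to -3.65 (5th percentile) and -2.04 (40th percentile), and at 7 d to -2.92 and -1.46. It was -2.15 at 24 h with UGT78D2 alone, which serves both branches. With every tested gene of the branch lists it was -1.63 at 24 h and -1.33 at 7 d. Both choices were made after seeing the data. Apart from the value with UGT78D2 alone, these differences include UGT78D3, which entered the test only through 24 h. The filter at the 60th percentile removed UGT78D3, UF3GT and AT4G14090, leaving 2 genes past the threshold at 24 h, 2 in 24 h against 1 h, 1 at 7 d and 2 by the F test. With no filter there were 2 in 24 h against 1 h, 0 in 7 d against 24 h and 1 at 7 d. At 7 d 1 remained without the variance trend and 1 with those 2 times alone. In 7 d against 24 h the count was 2 with the pseudocount at the 40th percentile, 3 with centred arrays, 2 with those 2 times alone and 4 with the replicate block. These counts are over the 6 genes, UGT78D3 included. Leaving out 1 array gave 2 to 4 at 24 h, 1 to 4 in 24 h against 1 h, 0 to 2 at 7 d, 0 to 1 in 7 d against 24 h and 2 to 5 by the F test. Among the 6 genes the replicate block changed only the calls of CHIL, DFR and UF3GT given above and that of UGT78D3 in 7 d against 24 h. The causes were not tested, apart from genes removed by the filter.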
